A study of Mus musculus with 9 samples.

Results

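The features described here are the 33, of 676 with a count in these samples, that had a count above 0 in 3 or more of the 5 samples of colon content from mice given dextran sodium sulfate (DSS) and 0 counts in all 4 samples taken under basal conditions. A feature is a row of the deposited count table, known by an identifier of 32 characters. The table pairs these identifiers with no sequence, taxon or gene, so the DSS-only features are numbered here from 1 to 33 by their mean share, which is the percentage of a sample's counts, over the 5 DSS samples. The members were chosen by their measured counts, above 0 or not, so their presence with DSS and their absence from basal samples are descriptions and were not tested. The rule did not use which DSS samples held each feature, or at what share, apart from the requirement of 3 samples. Its requirement of 0 basal counts can still bear on this, since a DSS sample that resembles basal samples may have more of its features removed.

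The study sequenced DNA of colon content from mice of 2 genotypes. The knockout (KO) mice, iVilCreERT2Jupfl/fl, combined floxed Jup alleles with a Cre recombinase that can be induced and is driven by the villin promoter, a promoter of intestinal epithelial cells. The wild type (WT) mice, Jupfl/fl, had the same floxed alleles without the Cre. DSS was given at 2.5% in drinking water for 5 days, with 3 KO and 2 WT samples in the DSS groups and 2 of each genotype in the basal groups. The sources used here do not give age, background strain or the inducing agent. They do not say either that samples were of different mice, so the p-values refer to the spread of these samples, which may be partly technical.

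Jup encodes plakoglobin, a protein of the desmosomes and adherens junctions that hold epithelial cells together. DSS injures the colonic epithelium and the mucus layer above it, and the resulting colitis is widely used as a model of acute intestinal inflammation. Gut bacteria differ in how they cope with an inflamed colon, where oxygen, mucus, host cell debris and antimicrobial proteins all change, and bacteria too rare to be seen before can become detectable. A feature that is not counted may be absent or too rare for the depth.

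Total counts ran from 341216 to 451515 per sample. A count of 0 allows a share of up to 3 counts of the total, which is 0.000741% to 0.000879% in the basal samples and 0.000664% to 0.00083% in the DSS samples. These limits and the 95% Wilson intervals given below cover counting error only and treat reads as independent. PCR reads are not independent molecules, so the intervals may be too narrow. KO DSS 3 alone among the DSS samples was closer on average to basal than to other DSS samples on the features outside the set. Over those, its mean Bray-Curtis distance was 0.533 to basal and 0.671 to the remaining DSS samples. That distance is 0 for equal communities and 1 for no overlap. WT DSS 2 lay about as far from the other DSS samples, at 0.676. The nearest sample was a basal one for WT DSS 1 and WT DSS 2 as well as for KO DSS 3. The main counts and genotype differences are given with and without KO DSS 3. With no host gene in the table, the genotypes were taken from the labels unchecked.

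Most of the set was at the edge of the rule. Of the 33 features, 26 were found in exactly 3 DSS samples, 6 in 4 and 1 in all 5. The comparison set used below was the 268 features also found in 3 or more DSS samples but in at least 1 basal sample, of which 65 were in exactly 3, 72 in 4 and 131 in all 5 DSS samples. Just outside the rule, 28 features were found in 2 DSS samples and no basal sample, with a median mean share of 0.0101% over the DSS samples, against 0.0163% for the 26 members found in exactly 3. A further 30 features were found in 3 or more DSS samples and 1 basal sample, at 1 to 3428 counts there, and in 13 of them that basal count was under 10. WT basal 2 was that sample for 21 of the 30, so that the rule applied without WT basal 2 gave 54 features. Leaving out WT DSS 1 gave 15 features, and leaving out WT DSS 2 gave 12. The rule gave 20 when KO DSS 1 was left out and 14 when KO DSS 2 was. With 10 or more counts taken as detection, 40 features met the rule, of which 26 were among the 33. In the opposite direction, 5 features were found in 3 or more of the 4 basal samples and in no DSS sample.

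The DSS-only features were minor parts of the flora. Their mean shares over the DSS samples ran from 0.000805% to 0.362% with a median of 0.0217%, and 5 of them exceeded 0.1%. Together these 5 held 58.6% of the set's mean share, and the 12 most abundant held 83.8%. None was among the 6 features that took over 10% of any sample, and the ranks of the 33 by mean share over all 9 samples ran from 73 to 639 of 676. Where a feature was found, its highest share was 1.26 to 317 times its lowest (median 7.01), so that 1 sample held 38.0% to 96.7% of its summed share. The highest sample was WT DSS 2 for 12 features, KO DSS 1 for 9, WT DSS 1 for 7, KO DSS 2 for 5 and KO DSS 3 for 0. Of the 107 values above 0, 2 were of 3 counts or fewer.

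**Figure D1:**
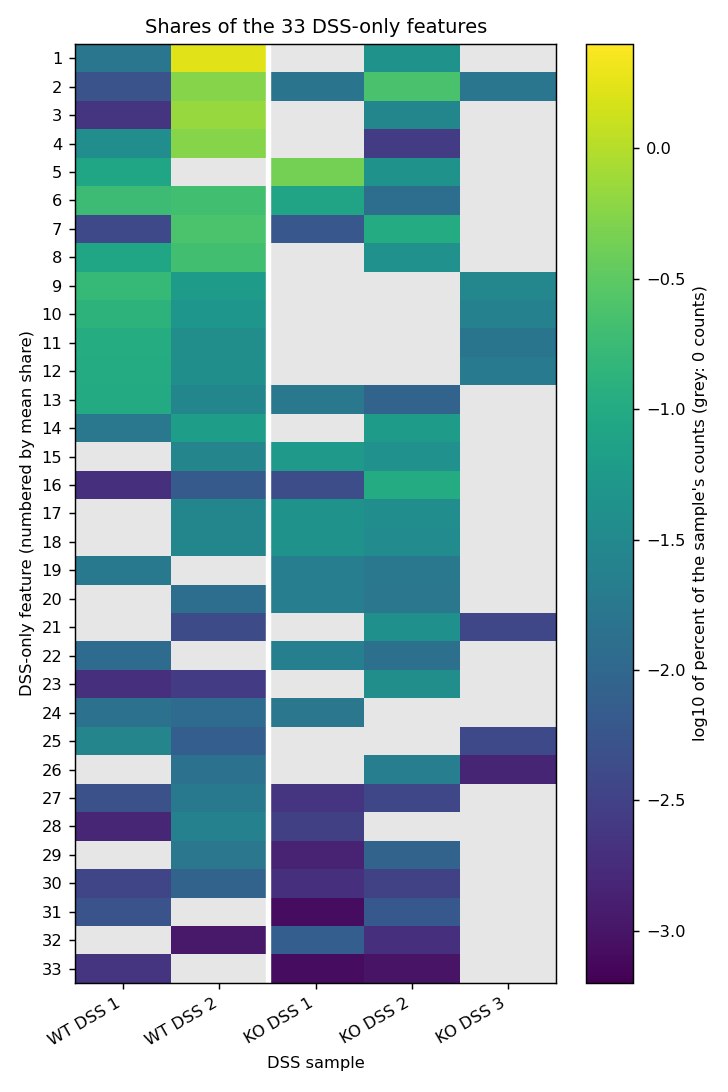
Share of each of the 33 DSS-only features (rows, numbered by mean share) in the 5 DSS samples (columns, WT left of the white line and KO right of it), as log10 of the percentage of the sample's counts, with grey for 0 counts. The column of KO DSS 3 is grey for 25 of 33 features, and the brightest cell is feature 1 in WT DSS 2, at 1.75%.

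Summed over the set, the DSS-only features took 1.14% of the counts of WT DSS 1 (95% Wilson interval 1.11% to 1.17%) and 4.70% of WT DSS 2 (4.64% to 4.77%). In the KO samples they took 0.815% of KO DSS 1 (0.786% to 0.844%), 0.972% of KO DSS 2 (0.943% to 1.00%) and 0.114% of KO DSS 3 (0.104% to 0.125%). Both WT samples thus lay above all 3 KO samples, WT DSS 1 narrowly so. The WT DSS mean was 2.92% ± 2.52 (SD, n = 2). The KO DSS mean was 0.634% ± 0.457 (SD, n = 3), or 0.893% ± 0.112 (SD, n = 2) without KO DSS 3. The difference of -2.29 percentage points was smaller than the SD of the WT samples. With the rule applied anew without WT DSS 2, which leaves 12 features and drops features 1, 3 and 4, it was -0.0305 points. Over all 33 features WT DSS 1 alone, at 1.14%, lay above the KO DSS mean of 0.634%. In WT DSS 2 the 4 largest members, features 1 to 4, made up 75.8% of the set's counts, whereas in WT DSS 1 the 4 largest made up 51.9%.

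The number of DSS-only features in a sample differed less, with 1 exception. WT DSS 1 held 25 of the 33, WT DSS 2 28, KO DSS 1 20, KO DSS 2 26 and KO DSS 3 8. WT samples held 26.5 ± 2.12 (SD, n = 2) on average, and KO samples 18.0 ± 9.17 (SD, n = 3), a difference of -8.5 features. Without KO DSS 3 the KO mean over the same 33 features was 23.0 ± 4.24 (SD, n = 2), still below the WT mean. With the rule applied anew to the 8 samples left, which keeps 26 features, the difference was 1.5 features. That selection drops features that needed KO DSS 3 to reach 3 samples. Among them are 5 found in both WT samples and in no other KO sample, so the value of 1.5 is of a different set. As a share of all features detected in the sample, the set made up 7.20% to 7.80% in WT DSS 1, WT DSS 2, KO DSS 1 and KO DSS 2, and 2.56% in KO DSS 3.

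KO DSS 3, with the lowest number of DSS-only features, was second lowest in features of any kind. It held 313 features, against 273 in KO DSS 1 and 325, 359 and 361 in the other 3 DSS samples, and its total of 404927 counts was above that of KO DSS 1, at 361636. Of the 268 comparison features it held 82.1%, within the 76.1% to 92.2% of the other 4 DSS samples, but of the DSS-only features 24.2%, below their 60.6% to 84.8%. To set aside that most members were found in few samples, features in exactly 3 DSS samples were compared. KO DSS 3 held 26.9% of the 26 DSS-only features of that kind and 58.5% of the 65 comparison features, while KO DSS 1 held 50.0% and 32.3%. The counts give shares and not bacterial numbers, so a smaller share and a smaller amount cannot be told apart.

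**Figure D2:**
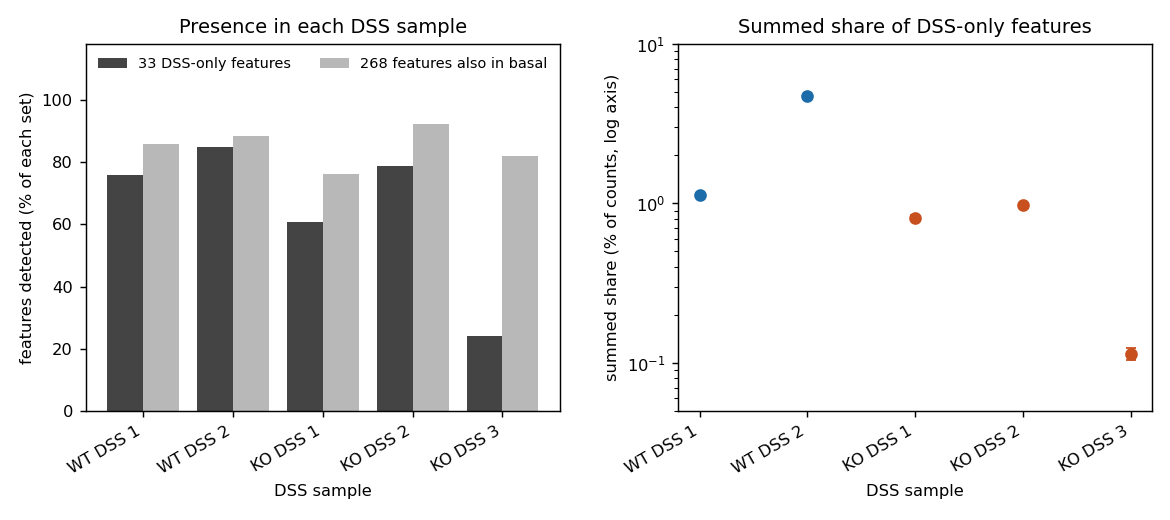
Left: percentage of the 33 DSS-only features (dark bars) and of the 268 features found in 3 or more DSS samples and a basal sample (light bars) that were detected in each DSS sample. Right: summed share of the DSS-only features in percent of the sample's counts on a log axis, WT in blue and KO in orange, with 95% Wilson intervals, most of them smaller than the points. KO DSS 3 is lowest for the set in both panels, at 24.2% of its features and 0.114% of counts, but not for the comparison features.

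Sharing between genotypes was general within the set. All 33 features were found in at least 1 WT DSS and 1 KO DSS sample. The rule itself excludes a WT-only feature, since there were 2 WT DSS samples and 3 were required. It allows a KO-only feature, and 0 of 33 were found in the 3 KO samples alone, against 6 of 268 comparison features (2.24%). Of the 26 members in exactly 3 samples, 13 were in 2 WT and 1 KO sample and 13 in 1 WT and 2 KO samples, and the 65 comparison features in exactly 3 samples divided into 28 and 31, with the 6 found in KO alone. Of the 33, 20 (60.6%) were in both WT samples and 1 (3.03%) in all 3 KO samples. For the comparison features these shares were 76.5% and 60.8%. Without KO DSS 3, 18 of the 33 (54.5%) and 191 of the 268 comparison features (71.3%) were in both other KO samples, so the shares lay closer together than with KO DSS 3.

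The features fell into 8 combinations of samples. Those held by WT DSS 1, WT DSS 2, KO DSS 1 and KO DSS 2 numbered 6, those held by both WT samples and KO DSS 2 numbered 6, and those held by WT DSS 2, KO DSS 1 and KO DSS 2 also numbered 6. Another 5 were held by WT DSS 1, KO DSS 1 and KO DSS 2, and 5 by both WT samples and KO DSS 3. KO DSS 1 and KO DSS 2 had 18 members in common, which is 90.0% of those in KO DSS 1 and 69.2% of those in KO DSS 2. The WT samples had 20 in common, 80.0% of WT DSS 1 and 71.4% of WT DSS 2. Of the 8 members in KO DSS 3, all 8 were also in WT DSS 2, 6 in WT DSS 1, 3 in KO DSS 2 and 1 in KO DSS 1. With the 5 that form the first near-constant set described below counted once, KO DSS 3 had 4, of which WT DSS 2 held 4, KO DSS 2 3, WT DSS 1 2 and KO DSS 1 1, so these numbers give no clear order by genotype. Of its 220 comparison features, 86.8% were in WT DSS 2, 85.0% in WT DSS 1, 91.8% in KO DSS 2 and 78.6% in KO DSS 1.

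Features 1, 3, 4, 8, 14 and 23 were held by both WT samples and KO DSS 2. Feature 1 (7f26be96f4d5295ca038bb284ee22a23), the most abundant of the set, took 0.0162% of WT DSS 1, 1.75% of WT DSS 2 and 0.0442% of KO DSS 2, and was not detected in KO DSS 1 and KO DSS 3. WT DSS 2 thus carried 96.7% of its summed share, and KO DSS 2 lay above WT DSS 1. Feature 3 had the same order, with 0.00221%, 0.702% and 0.0282%. Feature 4 took 0.0368% of WT DSS 1, 0.556% of WT DSS 2 and 0.0027% of KO DSS 2. Feature 8 was more even, at 0.0819%, 0.203% and 0.042% in those samples. For features 4 and 8 both WT shares were above every KO share, whereas for features 1 and 3 the genotypes overlapped.

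Feature 2 (6ffed603109d2d169a33bdce03fa3c99) was the member found in all 5 DSS samples. It took 0.00532% of WT DSS 1, 0.557% of WT DSS 2, 0.0152% of KO DSS 1, 0.232% of KO DSS 2 and 0.0163% of KO DSS 3. The high samples were thus 1 of each genotype, and the other 3 lay at least 14.2-fold lower than these. Feature 7 was high in the same samples, at 0.239% of WT DSS 2 and 0.104% of KO DSS 2, with 0.00399% in WT DSS 1, 0.00608% in KO DSS 1 and none detected in KO DSS 3. Feature 6 was spread in another way, at 0.184% and 0.205% of the WT samples, 0.0807% of KO DSS 1, 0.0128% of KO DSS 2 and 0 counts in KO DSS 3. Its WT shares lay close together, at 0.194% ± 0.0153 (SD, n = 2), and above every KO share, at 0.0312% ± 0.0434 (SD, n = 3).

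Of the 12 most abundant members, feature 5 alone was highest in a KO sample. It took 0.446% of KO DSS 1, 0.0452% of KO DSS 2 and 0.0862% of WT DSS 1, and was not detected in WT DSS 2 and KO DSS 3. Each genotype therefore had a sample without it. Feature 16 took 0.105% of KO DSS 2 and at most 0.00663% of any other sample, and feature 21 took 0.04% of KO DSS 2, 0.00414% of WT DSS 2 and 0.0037% of KO DSS 3. In both, KO DSS 2 alone stood above the rest. For each of features 5, 16 and 21 the 95% Wilson interval of the highest sample lay above those of the other samples, while for feature 21 those of WT DSS 2 and KO DSS 3 overlapped.

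Some features kept nearly the same ratio to each other in every sample that held them. A pair was called near-constant when both features were found in exactly the same DSS samples, at 10 or more counts in each, and the ratio of their counts varied at most 2-fold. Of the 33 features, 23 had such counts, and 17 of their 32 pairs with equal presence were near-constant (53.1%). These pairs joined 11 features into 3 sets. Among the comparison features found in 3 or 4 DSS samples, 77 of 455 pairs were near-constant (16.9%), and such pairs joined 35 of 95 features (36.8%), beside 47.8% for the 23. That order of the shares of features turned with a ratio limit of 3, at 56.8% and 47.8%, while the share of pairs stayed higher for the members. Members of a set are not independent observations, and with each set counted once the 33 features come to 25.

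The first set held features 9, 10, 11, 12 and 25 and was found in both WT samples and KO DSS 3. Feature 9 had 741 counts in WT DSS 1, 222 in WT DSS 2 and 119 in KO DSS 3, and feature 10 had 610, 177 and 97. Feature 11 had 487, 138 and 65 counts, feature 12 469, 141 and 77, and feature 25 125, 27 and 16. Feature 9 thus made up 30.5%, 31.5% and 31.8% of the set's counts in the 3 samples, and feature 10 25.1%, 25.1% and 25.9%. All 10 pairs of the set were near-constant, with ratios that varied 1.02-fold to 1.39-fold. The set as a whole took 0.539% of WT DSS 1, 0.195% of WT DSS 2 and 0.0924% of KO DSS 3, where it made up most of the 0.114% held by all DSS-only features. It was not detected in KO DSS 1 and KO DSS 2, the DSS samples nearest each other on features outside the 33 (Bray-Curtis distance 0.297).

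The second set held features 15, 17, 18 and 20 and was found in WT DSS 2, KO DSS 1 and KO DSS 2. Its 6 pairs varied at most 1.35-fold, and features 17 and 18 had almost equal counts, with 103 and 101 in WT DSS 2, 158 and 158 in KO DSS 1, and 148 and 142 in KO DSS 2. The set took 0.0964%, 0.166% and 0.13% of these samples, so that it differed little between the samples that held it. The third set, features 19 and 22, was held by WT DSS 1, KO DSS 1 and KO DSS 2 at 0.0295%, 0.0442% and 0.0304%, and its ratio varied 1.64-fold. Sets 2 and 3 were both undetected in KO DSS 3 and in 1 WT sample each. Whether features of a set come from 1 organism was not tested.

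**Figure D3:**
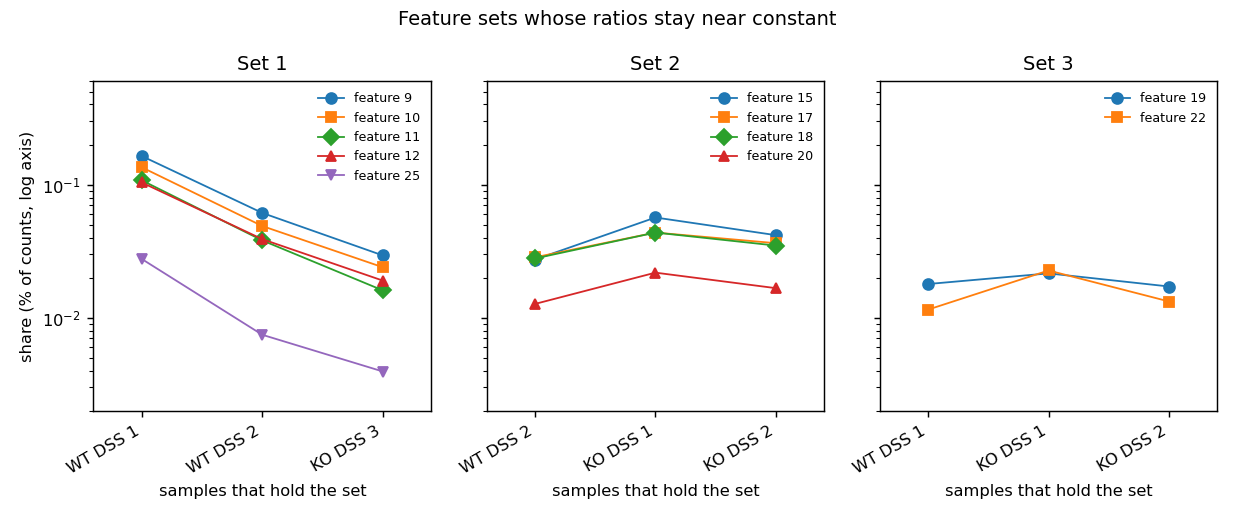
Share of each feature of the 3 near-constant sets, in percent of the sample's counts on a log axis, in the 3 samples that held the set. Near-parallel lines are near-constant ratios. Set 1 is highest in WT DSS 1, where it summed to 0.539%, and lowest in KO DSS 3, at 0.0924%.

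The genotypes were compared within DSS, a contrast that the rule did not use, with edgeR's quasi-likelihood test fitted on all 491 features that reached 10 counts in 2 samples. That filter kept 31 of the 33 DSS-only features, all but features 32 and 33. No member passed a Benjamini-Hochberg adjusted p of 0.05 (0 of 31), nor did any feature (0% of 491). At an unadjusted p under 0.05 there was 1 member, feature 4, against 7.94% of all features tested. Without KO DSS 3, 0 members and 0 features passed in edgeR, and 4 members were at an unadjusted p under 0.05, against 8.18% of the 477 features then tested. DESeq2 called 0 members and 2.24% of all features at an adjusted p of 0.05, but gave 17 of the 31 members no adjusted p. At an unadjusted p under 0.05 it had 1 member and 10.4% of all features, but features 1, 8, 9, 14 and 23 had no unadjusted p either. limma on centred log-ratios called 0 members, and at an unadjusted p under 0.05 it had 7 of 31 (22.6%) and 5.91% of all features. These 7 were features 1, 4, 8, 9, 10, 11 and 12, and the last 4 belong to 1 near-constant set. Each fit took its spread from the basal samples too, where the rule holds every member at 0 counts. That can lower a member's spread and p, so the shares of members and of all features, as 22.6% and 5.91%, are not of like kind. A p above the threshold does not show that the genotypes were alike here, because the standard errors were 2.73 to 4.88 on the log2 scale.

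Feature 4 had the smallest p of the set, with a log2 difference of -7.61 ± 3.72 (SE), lower in KO, and an edgeR adjusted p of 0.55. Feature 1 followed with -5.11 ± 2.75 (SE, edgeR adjusted p = 0.55), and feature 3 with -4.42 ± 3.15 (SE, edgeR adjusted p = 0.551). The last rested on WT DSS 2: without that sample its log2 difference was 1.58, that of feature 1 -0.63 and that of feature 4 -5.78. On the KO side the smallest p-values were those of feature 16 (3.47 ± 4.50 SE, edgeR adjusted p = 0.966), feature 21 (3.63 ± 4.88 SE, edgeR adjusted p = 0.978) and feature 5 (1.79 ± 2.84 SE, edgeR adjusted p = 1). Without KO DSS 2 the log2 difference of feature 16 turned to -0.33 and that of feature 21 became 0.4, and without KO DSS 1 that of feature 5 turned to -1.42. Without KO DSS 2, which then leaves features 1, 3 and 4 with no count in KO, their fitted values were -14.43, -13.1 and -12.92, which depend on how the fit treats 0.

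The log2 difference was below 0, lower in KO, for 20 of the 31 members, with a median of -0.85, and for 244 of all 491 features, with a median of 0. All members were found in 3 or more DSS samples, as were only 301 features in all. The 491 thus include features found in fewer DSS samples, and the medians are of unlike sets. Library totals in place of TMM factors moved the median of all features to -0.36 and the number below 0 to 295 (60.1%, from 49.7%), and gave the members a median of -1.70 with 20 below 0. limma on centred log-ratios gave medians of -2.22 for the members, 18 of them below 0, and 0.01 for all features. Without KO DSS 3 the edgeR median of the members was -0.80, with 20 of 31 still below 0. That of all features was -0.71, with 278 of 477 (58.3%) below 0. The gap between the edgeR medians thus narrowed mostly because the median of all features moved, while that of the members hardly did.

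By shares, 11 members had both WT samples above all 3 KO samples (33.3%), against 16.3% of the 301 features found in 3 or more DSS samples, and 0 had all KO samples above both WT samples, against 5.65%. The second count was nearly fixed by presence, since it needs a count in all 3 KO samples. Only 1 member (3.03%) had that, against 60.8% of the 268 comparison features, and 25 members had no count in KO DSS 3. The 0 beside 5.65% is therefore no result about levels. Without KO DSS 3 the counts were 11, against 26.2% of the 301 features, and 6, against 12.3%. The 11 were features 4, 6, 8, 9, 10, 11, 12, 13, 25, 27 and 30, and 5 of these form the first near-constant set. Without WT DSS 1 the 11 became 18 (54.5%), against 47.2% of the 301 features, and the 0 stayed at 0, against 13.6%. Without WT DSS 2 they became 12, against 19.6%, and 1, against 19.9%. Leaving out KO DSS 1 gave 13, against 20.3%, and 0, against 9.3%. Leaving out KO DSS 2 gave 15, against 28.2%, and 0, against 6.98%. Presence limits these last KO-higher counts too. Only 3 members were in both KO DSS 2 and KO DSS 3, and 1 in both KO DSS 1 and KO DSS 3. Of the comparison features 202 and 173 were. The limit of 1 member in all 3 KO samples also holds without WT DSS 1 or WT DSS 2.

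**Figure D4:**
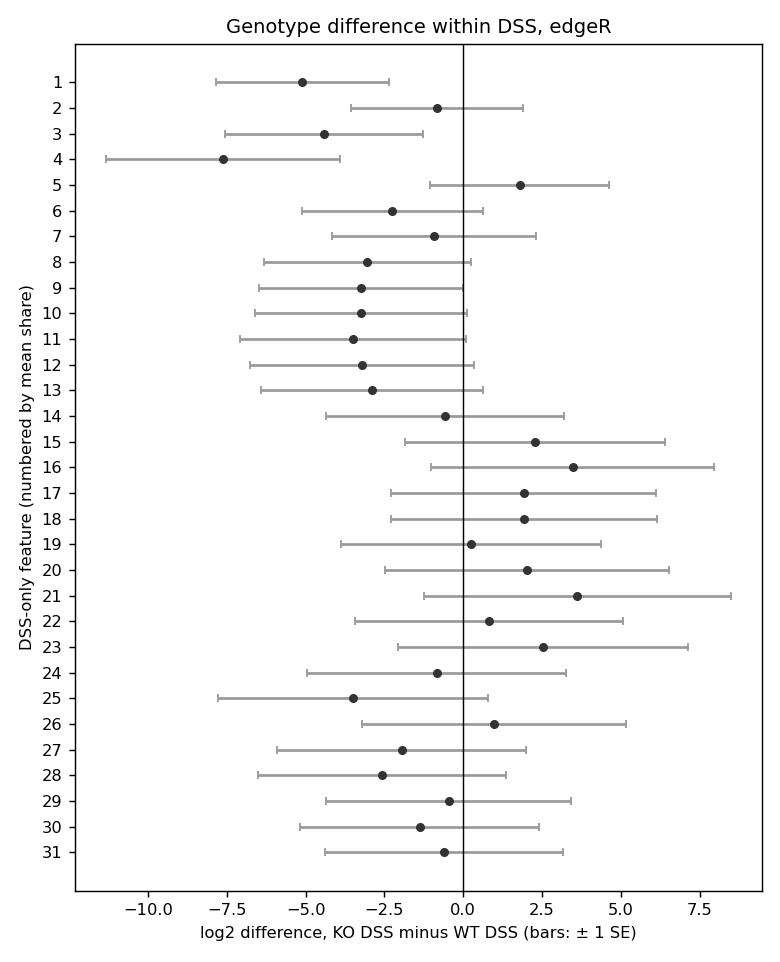
Log2 difference between KO DSS and WT DSS samples (KO minus WT) from edgeR for the 31 DSS-only features that passed the filter, with bars of 1 standard error, features numbered by mean share. Of the 31 points 20 lie below 0, and none passed an adjusted p of 0.05.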

How the data were processed

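DNA of colon content was sequenced in 9 samples. The authors deposited a table of raw counts per feature, 782 rows by 16 columns. Columns were matched to samples by the description in the labels, which placed 9, and the other 7 stayed unused. In these 9 columns 106 rows were empty. The sources used here do not state the amplified region, the read processing or any filter on low counts. Groups came from the sample titles.

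The members, lists and settings were chosen with earlier results of these data known. Detection was 1 or more counts. Features described singly were the 12 of largest mean share, those in all 5 DSS samples, the 3 of smallest p in each direction between genotypes, and those in near-constant pairs. Identifiers are printed for 2.

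edgeR 4.0.16 (R 4.3.3) was fitted with TMM factors to 4 group means over all 9 samples, on features that reached 10 counts in 2 or more samples, with Benjamini-Hochberg adjustment over 491 features. A standard error is the size of the log2 difference divided by the root of its F statistic. DESeq2 1.42.0 and limma 3.58.1 (pseudocount 0.5) were alternatives. The fits were also run on simulated data, with and without known differences between the DSS groups, and the outcome is not reported here. Those data held no features kept at 0 in the basal samples by the rule. They therefore do not check the fits for the members. Python 3.11.15, pandas 2.3.3 and SciPy 1.17.1 were used for the rest. Within each group, every pair of samples differed by far more than sampling noise (chi-square per degree of freedom 273 to 1235).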

Additional observations from a re-analysis of the deposited data

Results flagged for a closer look

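The sum over the set and the 21 features described singly, with the number held, gave 23 groups of 5 DSS values. By Dixon's rule a gap over 0.71 of the whole range is flagged, by chance in about 1 in 20 groups of normally distributed values. In 8 groups 1 sample stood apart from the other 4 by more than that. WT DSS 2 was that sample for the summed share, at 4.70% against at most 1.14%, and for feature 1 at 1.75% (next 0.0442%), feature 3 at 0.702% (next 0.0282%) and feature 4 at 0.556% (next 0.0368%). KO DSS 2 was that sample for feature 16 at 0.105% (next 0.00663%) and feature 21 at 0.0400% (next 0.00414%). KO DSS 1 stood apart for feature 5 at 0.446% (next 0.0862%), and WT DSS 1 for feature 25 at 0.0277% (next 0.00746%). The features overlap with the sum, so these are not 8 independent findings. Shares were skewed and often 0, and many features were picked for a large share or a small p. The 8 of 23 therefore cannot be set against that 1 in 20.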

How the results depend on the processing

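Of the counts of features called between KO DSS and WT DSS samples, that of the members stayed at 0 under library totals, DESeq2, limma, both other filters, the replicate number as a block and each of 9 left-out samples. That of all features stayed at 0 under the same settings except DESeq2, which called 11. With the replicate block 0 of 31 members and 0 of 491 features passed. The deviations of same-numbered samples correlated at 0.0382 to 0.368 over all pairs of groups, at 0.188 and 0.257 between the DSS groups. All were above 0, and those of KO basal with KO DSS and with WT DSS stayed under 0.1. With no baseline to set them against, these values do not settle whether the numbers pair the samples. The main fit left the block out. The filter on 4 samples left 4 members to test, and for that reason says little about the set.

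Over left-out samples the size of the set ran from 12 to 54. With the rule applied anew each time, the KO-minus-WT difference ran from -11.2 to 1.5 features held, the last without KO DSS 3. In summed share it ran from -2.98 to -0.0305 percentage points. These values are of different sets of features. Counts of members with all WT shares above all KO shares ran from 11 to 18, and of the reverse from 0 to 6; leaving out samples for these, the presence in both other KO samples without KO DSS 3, and the members of KO DSS 3 with each set counted once were chosen after the data were seen. The log2 differences turned sign for feature 3 without WT DSS 2 (1.58), feature 5 without KO DSS 1 (-1.42) and feature 16 without KO DSS 2 (-0.33). Fits without WT DSS 1 or WT DSS 2 take the lone WT DSS sample to vary like the other groups. Over left-out samples those of feature 3 ran from -13.1 to 1.58, of feature 5 from -1.42 to 12.92, and of feature 16 from -0.33 to 3.77. The cause of these shifts was not tested. Other detection minimums, counts scaled to the smallest total, other ratio limits and a denominator without the features over 10% of a sample moved the size of the set, its features held, its summed share and the number of members in near-constant pairs by less than 1.5 times or the spread between samples. The scaling left nearly all counts above 0, so it does not test detection at a lower depth. Features near the 3-count limit cannot be told from absent ones at this depth.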
